A study of Mus musculus with 2 samples.

Results

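The genes described here make and handle sterols and fatty acids in mouse T cells. They were 35 genes chosen by role: enzymes of the mevalonate and cholesterol pathway, the regulators that sense sterols, enzymes of fatty acid synthesis, elongation and desaturation, and the sterol exporters Abca1 and Abcg1. Of the 35, 34 were measured by probe sets annotated to that gene alone, among 18193 genes named in this way on the array. Acat2 is not analysed here.

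The study compared control T cells with T cells after exposure to the pigmented epithelium that backs the photoreceptors (RPE). Its title concerns the action of this epithelium on helper T cells that make interleukin-17. Each group was 1 Affymetrix oligonucleotide array, and both samples came from male mice of C57 BL/6 background, 6 weeks old. The title of the control names CD4 T cells, whereas that of the exposed sample names T cells and its tissue field primary cultured RPE. How the cells were cultured and exposed is not given in the sources used here.

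Cells build cholesterol from acetyl-CoA through mevalonate, isoprenoids, squalene and lanosterol, and build fatty acids from malonyl-CoA. When membrane sterol is low, SCAP escorts the SREBP transcription factors out of the endoplasmic reticulum and genes of both pathways are switched on. INSIG proteins hold SCAP back when sterol is plentiful, and the LXR receptors respond to oxysterols by switching on exporters and desaturases. Dividing T cells need both pathways to make membrane.

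The signal is a linear intensity in arbitrary units, and each difference below is log2 of the RPE-exposed signal minus log2 of the control signal. Among a gene's probe sets, the one of highest mean log2 signal stands for it. Signals below a floor, the median of each array (15.9 in control, 16 in exposed cells), were raised to the floor. No difference could be tested, since each group was a single array, and this number limits the precision. Error can be described only within this pair of arrays. Between probe sets of the same gene the pooled SD of the differences was 0.24 over 4767 genes, from 0.29 in the dimmest of 3 signal classes to 0.14 in the brightest. A second yardstick was the like-level range, the central 95% of differences among genes of similar mean level (20 bins). Probe sets of a gene are not replicates of cells or animals.

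All 34 genes passed the floor on both arrays. Most were slightly higher in the exposed cells: 28 had a positive difference, 5 a negative one, and Mvd was equal. That is 82.4% positive, against 48.2% of the 11021 genes compared on the array. The median of the 34 was 0.14, and that of all genes compared was -0.0096. Single differences were small. The only member at least 2-fold higher was Abca1, where 0.436% of all genes were, and none was 2-fold lower, against 0.626%. At a smaller size, a log2 difference of at least 0.32, 4 of 34 were higher (Abca1, Fads2, Scd2 and Scd1), a share of 11.8% that was near the 10.9% of all genes. None was lower by that smaller size, whereas 12.7% of all genes were. The smaller size rule, like the 2-fold one, was chosen with earlier results of these data known. The genes behind these shares include 1028 above the floor on 1 array only, and levels were not matched. With the floor at the 75th percentile, 0 of 30 members were lower by that size, against 470 of 6737 genes.

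The individual probe sets also leaned positive, though less so. The 34 genes had 81 probe sets, of which 69 passed the floor on both arrays. A single one passed on the exposed array alone, and 11 did not pass. Of the 69, 49 differences were positive, 19 negative and 1 zero. That is 71% positive against 48.4% of all named probe sets above the floor. The 69 include the 34 probe sets that stand for the genes, so this share is not independent of the 82.4% above. Among the 23 genes with several such probe sets, all were positive in 10 and all negative in 2 (Scap and Elovl6). In the other 11 they disagreed or included a zero.

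**Figure D1:**
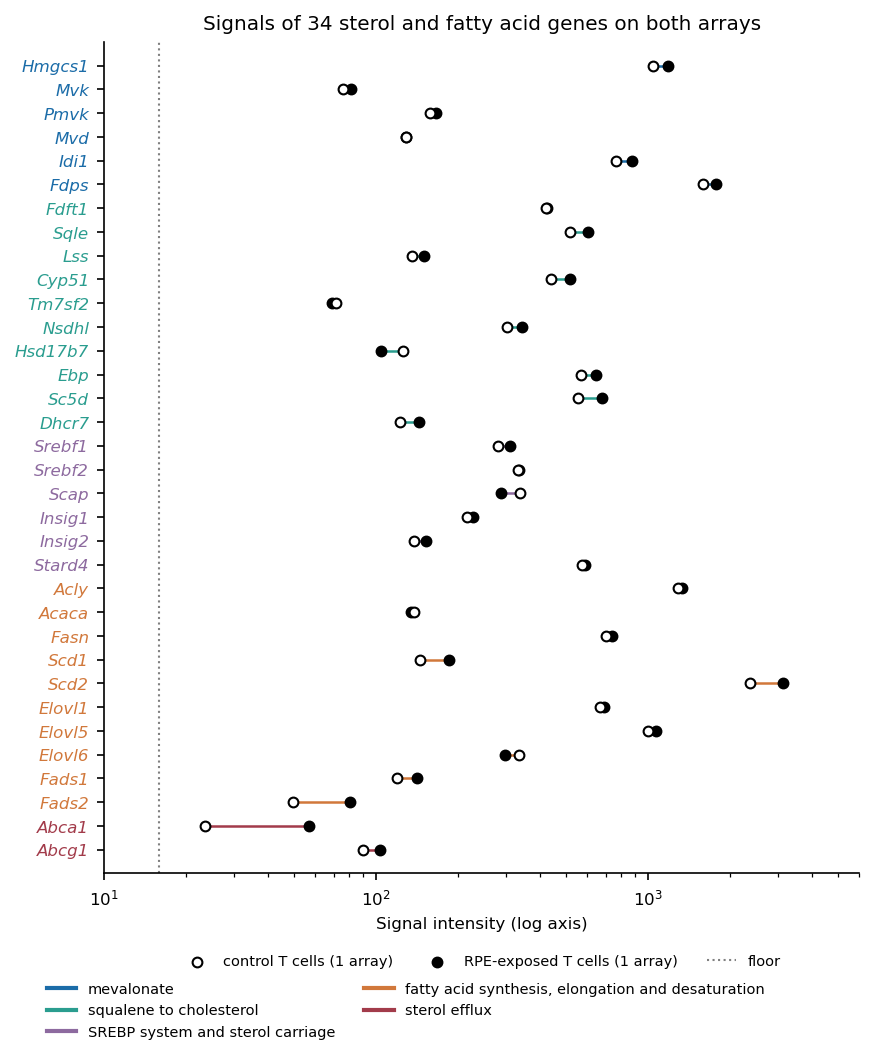
Signal of each gene on the control array (open circles) and the RPE-exposed array (filled circles), on a log axis in arbitrary intensity units, with gene names and connecting lines coloured by role and the floor dotted. The circles nearly touch for most genes, and the widest gaps are those of Abca1 (23.6 and 56.9), Fads2 (49.5 and 80.6) and Scd2 (2379.0 and 3152.4), all higher on the exposed array. Positions of different genes are not comparable as transcript amounts.

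The early steps, from acetyl-CoA to farnesyl diphosphate, were slightly higher. Of 6 genes 5 had positive differences, with a median of 0.13 and none at the smaller size rule. Hmgcs1, which joins acetyl-CoA to acetoacetyl-CoA, was higher on the exposed array in all 5 of its probe sets. Their control and exposed signals ran from 774.2 to 911.1, from 952.3 to 1055.2, from 1046.3 to 1182.1, from 392.6 to 441.7 and from 34.4 to 44.6, a mean difference of 0.22 ± 0.092 (SD, 5 probe sets). The probe set representing it has probes shared with other sequences and gave 0.18. Idi1, the isomerase that makes the active isoprenoid unit, was higher in both probe sets, at 762.8 and 872.6 (0.19) and at 427.5 and 463.8 (0.12). Fdps, which makes farnesyl diphosphate, had 1598.2 in control and 1780.5 in exposed cells, a difference of 0.16 inside its like-level range of -0.19 to 0.28.

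The kinases and the decarboxylase between them had differences of 0.10 or less. Mvk, mevalonate kinase, had 75.6 and 81.1, while its other probe set had 58.2 and 57.8. Pmvk, phosphomevalonate kinase, gave 158.1 and 166.8 with its only probe set. Mvd, the decarboxylase that follows, read 128.6 on both arrays, and its second probe set 99.7 and 95.9. The gaps between these enzymes and Hmgcs1, Idi1 and Fdps were within the overall pooled probe-set SD of 0.24, so no order among the 6 can be given.

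From squalene to cholesterol 8 of 10 genes had positive differences, with a median of 0.18 and a range from -0.26 to 0.30. Sqle, squalene epoxidase, a control step of the pathway, went from 517.6 to 602.4 (0.22). Cyp51, which demethylates lanosterol, went from 442.3 to 515.6 in its representative probe set, and its 3 probe sets averaged 0.17 ± 0.077 (SD), all positive. Sc5d, a sterol desaturase, had the largest difference of the group at 553.5 and 681.2 (0.30). Its weaker probe sets gave 87.7 and 97.8, and 30.1 and 29.5, so the increase was not seen in the third.

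Dhcr7, the reductase that completes cholesterol, had 122.6 and 143.6 (0.23). Nsdhl, a sterol dehydrogenase, had 302.8 and 343.4 (0.18), and Ebp, a sterol isomerase, 569.5 and 643.3 (0.18). Each of these was a single probe set and lay inside its like-level range. Lss, which closes squalene epoxide into lanosterol, was higher in both probe sets above the floor, at 136.3 and 150.1 (0.14) and at 30.7 and 36.4 (0.25).

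A few enzymes of this stretch did not share the shift. Fdft1, squalene synthase, which commits isoprenoids to sterols, was level at 420.6 and 425.8, with a second probe set at 386.3 and 384.7. Tm7sf2, a sterol reductase, had 71.6 and 69.1. Hsd17b7, a sterol ketoreductase, had the lowest value of all 34 genes, 125.4 and 104.5 (-0.26), but from a probe set shared with other sequences. Its 2 unshared probe sets above the floor gave 92.9 and 95.1, and 51.3 and 55.5, both slightly positive. No gene of the stretch was outside its like-level range, so each difference alone was of a size common among genes of its level. For the 16 enzymes from mevalonate to cholesterol together, 13 differences were positive, 2 negative and 1 zero, with a median of 0.17.

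The stretches before the start sites of 6 genes are printed so that 3 promoter motifs can be read beside these values. They are 4 sterol enzymes that were higher (Hmgcs1, Idi1, Cyp51 and Sc5d) and the pair of genes with the largest differences (Fads2 and Abca1). Other sterol enzymes that were higher and had a window, such as Dhcr7 and Nsdhl, are not printed. No motif of the LXR receptors was searched. Each is the 250 bases before the RefSeq start, read 5′ to 3′ on the gene's strand, in build GRCm38.p6. Capitals mark 3 motifs searched on both strands: the sterol regulatory element TCACNCCAC bound by SREBPs, the box CCAAT bound by NF-Y (ATTGG on the other strand), and the E-box CACGTG. The windows lie at chr13:119690101-119690350 (plus strand) for Hmgcs1, chr13:8885356-8885605 (plus) for Idi1, chr5:4104698-4104947 (minus) for Cyp51, chr9:42264301-42264550 (minus) for Sc5d, chr19:10101504-10101753 (minus) for Fads2 and chr4:53159896-53160145 (minus) for Abca1.
Hmgcs1: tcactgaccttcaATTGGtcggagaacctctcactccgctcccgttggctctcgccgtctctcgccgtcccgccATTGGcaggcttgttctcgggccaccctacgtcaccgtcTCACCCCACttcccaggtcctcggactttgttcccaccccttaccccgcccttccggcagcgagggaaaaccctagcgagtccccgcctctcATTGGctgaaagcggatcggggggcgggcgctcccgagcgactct
Idi1: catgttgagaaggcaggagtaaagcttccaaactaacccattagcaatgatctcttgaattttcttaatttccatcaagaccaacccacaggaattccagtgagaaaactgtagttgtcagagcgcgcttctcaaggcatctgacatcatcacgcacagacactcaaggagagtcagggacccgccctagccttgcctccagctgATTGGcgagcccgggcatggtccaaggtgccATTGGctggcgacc
Cyp51: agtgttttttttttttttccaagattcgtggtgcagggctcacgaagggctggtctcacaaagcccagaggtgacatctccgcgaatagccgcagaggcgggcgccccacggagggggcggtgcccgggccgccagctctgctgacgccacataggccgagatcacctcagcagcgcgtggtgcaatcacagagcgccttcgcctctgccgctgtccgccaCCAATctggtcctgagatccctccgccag
Sc5d: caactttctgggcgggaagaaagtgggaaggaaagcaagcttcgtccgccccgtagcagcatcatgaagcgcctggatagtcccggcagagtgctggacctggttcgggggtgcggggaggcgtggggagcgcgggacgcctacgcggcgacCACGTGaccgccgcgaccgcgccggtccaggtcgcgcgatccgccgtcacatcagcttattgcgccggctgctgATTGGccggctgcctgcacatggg
Fads2: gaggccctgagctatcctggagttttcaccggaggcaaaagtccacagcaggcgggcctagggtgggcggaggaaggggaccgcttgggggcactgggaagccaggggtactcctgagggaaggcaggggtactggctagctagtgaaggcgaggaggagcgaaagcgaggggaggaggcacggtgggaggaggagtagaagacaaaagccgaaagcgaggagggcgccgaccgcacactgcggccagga
Abca1: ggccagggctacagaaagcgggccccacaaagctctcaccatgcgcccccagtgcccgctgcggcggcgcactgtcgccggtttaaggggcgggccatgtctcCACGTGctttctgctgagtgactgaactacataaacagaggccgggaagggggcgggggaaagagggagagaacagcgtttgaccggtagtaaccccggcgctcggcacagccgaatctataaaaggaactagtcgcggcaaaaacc

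In the Hmgcs1 window the sterol regulatory element reads TCACCCCAC, from base 137 to base 129 before the start, and CCAAT boxes lie on the opposite strand at bases 237, 176 and 45. Idi1 holds 2 CCAAT boxes, at bases 45 and 14, Cyp51 holds 1 at base 29, and Sc5d has 1 at base 24 with an E-box at base 98. Abca1 has an E-box at base 147 and no other of the 3 motifs, and the Fads2 window holds none. RefSeq windows were found for 27 of the 35 genes, in 36 windows. Scd1, Scd2, Fads1, Fdps, Stard4, Sqle, Abcg1 and Fdft1 had none, so the shares below do not cover them. CCAAT was in 21 of the 36 (58.3%), against 33.8% of the 32851 windows of all genes, the E-box in 7 (19.4%, against 6.02%), and the sterol regulatory element in 1 (2.78%, against 1.05%). Mvd, Tm7sf2 and Hsd17b7, whose representative probe sets were not higher, also held CCAAT. The motifs do not overlap each other in the windows shown. These are matches of letters, not measured binding, and windows of all genes include genes of every kind. A motif's absence says only that these letters are not in the window.

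The sterol-sensing system itself was mixed. Of 6 genes 5 had positive differences with a median of 0.054, the nearest to zero of the roles, and with probe sets averaged the median was -0.14. Srebf1, the SREBP gene tied mostly to fatty acid synthesis, had 281.3 and 310.9 (0.14). Srebf2, tied mostly to cholesterol synthesis, had 333.3 and 336.1 in 1 probe set and 268.6 and 219.9 (-0.29) in the other. Scap, the escort of the SREBPs, was lower in both probe sets, at 340.0 and 288.8 (-0.24) and at 22.5 and 19.7 (-0.19).

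Insig1, the INSIG gene that is itself switched on by SREBP, differed little at 217.2 and 227.6 (0.067). Insig2, its paralog, disagreed among its probe sets, which went from 138.2 to 152.8 (0.14), from 128.8 to 111.9 (-0.20) and from 62.0 to 40.8 (-0.60). The mean of the 3 was -0.22 ± 0.37 (SD), so no direction can be given for Insig2. Stard4, a carrier of cholesterol inside the cell, likewise gave 572.4 and 589.1 in 1 probe set, but 609.0 and 536.0 (-0.18) and 472.8 and 391.2 (-0.27) in the others. Direction within this group thus depended on the probe set for Srebf2, Insig2 and Stard4.

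The core fatty acid synthesis enzymes were near level. Acly, which makes cytosolic acetyl-CoA from citrate, had 1295.2 and 1338.4 (0.047), and its other 2 probe sets above the floor gave 920.8 and 980.8, and 501.5 and 557.7. Acaca, the carboxylase that makes malonyl-CoA, had 137.8 and 134.6 (-0.034). Fasn, fatty acid synthase, had 699.2 and 737.6 (0.077). None came near the smaller size rule. The 10 genes of fatty acid synthesis, elongation and desaturation had a median of 0.089, with 8 positive.

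Among the elongases, Elovl5, which lengthens polyunsaturated chains, was higher in both probe sets, at 1002.1 and 1075.0 (0.10) and at 740.4 and 809.7 (0.13). Elovl1, for very long saturated chains, gave 665.6 and 689.5 (0.051), with its 3 probe sets disagreeing in sign. Elovl6, which takes palmitate to stearate, was the one elongase lower throughout, at 335.8 and 297.4 (-0.18), 124.9 and 124.5, and 56.9 and 45.9 (-0.31). All 3 elongases lay inside their like-level ranges.

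The 4 fatty acid desaturases, grouped after the values were seen, had a median of 0.38 and ran from 0.25 to 0.70. Scd2, which puts the first double bond into saturated fatty acids, was higher in all 3 probe sets. Signals went from 2379.0 to 3152.4 (0.41), from 798.0 to 1217.1 (0.61) and from 194.4 to 335.0 (0.79), a mean of 0.60 ± 0.19 (SD, 3 probe sets). The first, brightest probe set represents the gene, and its 1.33-fold difference lay above the like-level range of -0.19 to 0.28. So Scd2 was higher throughout, but by how much differed between its probe sets.

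Scd1, the paralog with the same activity, was higher in both of its probe sets, at 144.8 and 186.0 (0.36) and at 43.7 and 64.0 (0.55), inside its like-level range of -0.53 to 0.53. Scd1 and Scd2 are close paralogs whose probes may share signal, so their values are uncertain as separate measurements. Fads2, the desaturase that opens the polyunsaturated fatty acid route, had 49.5 and 80.6 (0.70, 1.63-fold) and 35.9 and 69.3 (0.95). Its like-level range ended at 0.66, below the first value. Fads1, the next desaturase of that route, gave 119.5 and 141.9 (0.25) and 41.2 and 46.4 (0.17). All 9 probe sets of these 4 genes above the floor were thus higher on the exposed array. Fads2 ranked 191 and Scd2 812 of 11021 genes by difference, counted from the highest.

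**Figure D2:**
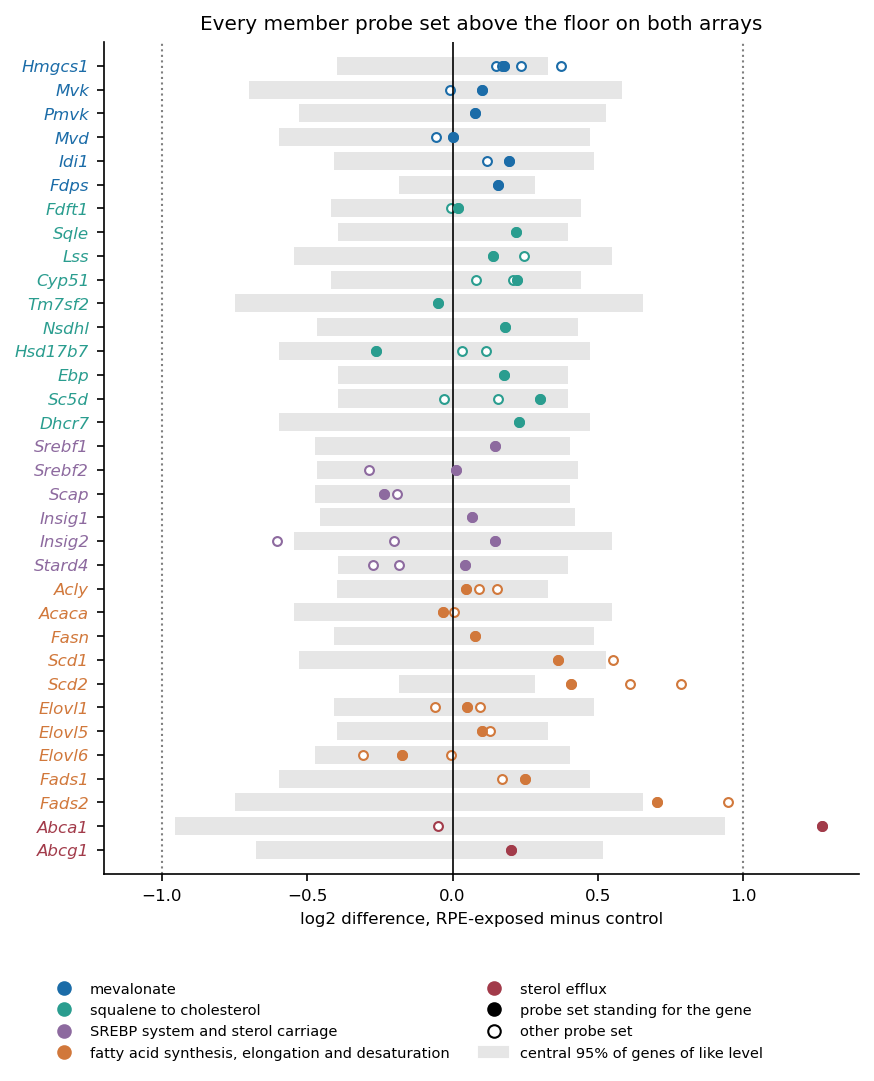
log2 difference, RPE-exposed minus control, of every probe set above the floor on both arrays (circles, coloured by role), with the probe set that represents the gene filled. Grey bars give the central 95% of genes of like level to the representative, and dotted lines mark 2-fold. Scd2, Fads2 and Abca1 lie above their bars, and Insig2 has probe sets from -0.60 to 0.14.

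The sterol exporters were both higher, Abca1 by the largest difference of all 34 genes. Abca1, which loads cholesterol onto apolipoproteins, had 23.6 in control and 56.9 in exposed cells in its brightest probe set, 2.41-fold higher (1.27), above its like-level range of -0.95 to 0.94 and at rank 18 of 11021. Its other 2 probe sets were dim. One gave 20.1 and 19.4 (-0.051) and the other 4.1 and 14.8, under the floor on both arrays. Averaged over all its probe sets Abca1 gave 0.41, with an offset of 16 added to each signal 0.88, and it was not compared when the floor was the 75th percentile, so the 2-fold value rests on a single dim probe set. Abcg1, which exports cholesterol to lipoprotein particles, had 90.0 and 103.4 (0.20) and, in a dim probe set, 13.9 and 20.2, above the floor in exposed cells only.

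Abca1 and the 4 desaturases, set apart after the values were seen, include every member that reached the smaller size rule. By that choice none of the other 29 genes reached it, and their differences ran from -0.26 to 0.30. The median of the 29 was 0.10, and 23 were positive. Of all genes compared 48.2% were positive, with a median of -0.0096. Positive differences thus also outnumbered negative ones outside those 5 genes.

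Genes of neighbouring steps came from lists chosen by textbook role. Over all these lists, with fatty acid oxidation included, 33 of 52 genes were positive, with a median of 0.059. Of all genes compared 48.2% were positive. Of 11 other sterol and isoprenoid genes above the floor, 9 were positive with a median of 0.076. Among the cholesterol enzymes in it, Msmo1, a sterol oxidase, had 515.0 and 605.1 (0.23), and Lbr, a nuclear envelope protein with sterol reductase activity, 2733.3 and 3053.4 (0.16). The highest were Fntb, a subunit of farnesyltransferase, near the floor at 20.9 and 37.8 (0.85), and Pdss2, of ubiquinone synthesis, at 50.9 and 67.0 (0.40). The lowest were Dhdds, of dolichol synthesis, at 177.8 and 128.0 (-0.47, with its 2 weaker probe sets positive), and Ggps1, which makes geranylgeranyl diphosphate, at 202.9 and 186.3 (-0.12, with 2 of its 4 probe sets positive).

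SREBP processing genes were not shifted as a list, with 4 of 9 positive and a median of -0.032. Lpin1, a phosphatidate phosphatase that restrains SREBP, was highest at 98.4 and 135.9 (0.47), followed by Rnf139, a sterol-linked ubiquitin ligase of the endoplasmic reticulum, at 0.11. Erlin1, a membrane protein that restrains SREBP activation, was lowest at 174.6 and 129.0 (-0.44), with Sec24a, a coat protein of transport vesicles, at -0.14. Of the proteases that release SREBPs, Mbtps1 gave 363.3 and 371.5, and Mbtps2 160.1 and 156.6.

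Other genes of fatty acid synthesis and activation were positive in 7 of 12, with a median of 0.046. Me1, which supplies NADPH to fatty acid synthesis, was highest at 16.6 and 37.8 (1.19), but the control signal was barely above the floor, and Acsl3, a fatty acid activating enzyme, had 94.5 and 114.1 (0.27). The citrate exporter Slc25a1 was lowest at 318.7 and 266.7 (-0.26), followed by Hacd3, an elongation-cycle dehydratase, which was lower in all 3 probe sets and had 787.0 and 682.5 (-0.21). Slc25a1, Hacd3 and Acsl3 lay inside their like-level ranges.

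Of 10 sterol storage, transport and LXR pathway genes 7 were positive, with a median of 0.12. Osbpl8, a lipid transfer protein, was highest at 296.0 and 361.4 (0.29), then Scarb1, a lipoprotein receptor, at 168.8 and 199.5 (0.24, while its other 2 probe sets were negative). The known LXR targets Mylip and Lpcat3 gave 0.20 and 0.19, each from a single probe set above the floor and inside its like-level range. Nr1h3, the gene of an LXR, was near the floor at 17.9 and 18.6. The lowest were the lysosomal sterol exporter Npc1, at 68.5 and 49.9 (-0.46), and Nceh1, a cholesteryl ester hydrolase, at 86.5 and 66.1 (-0.39) and lower in all 3 probe sets.

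**Figure D3:**
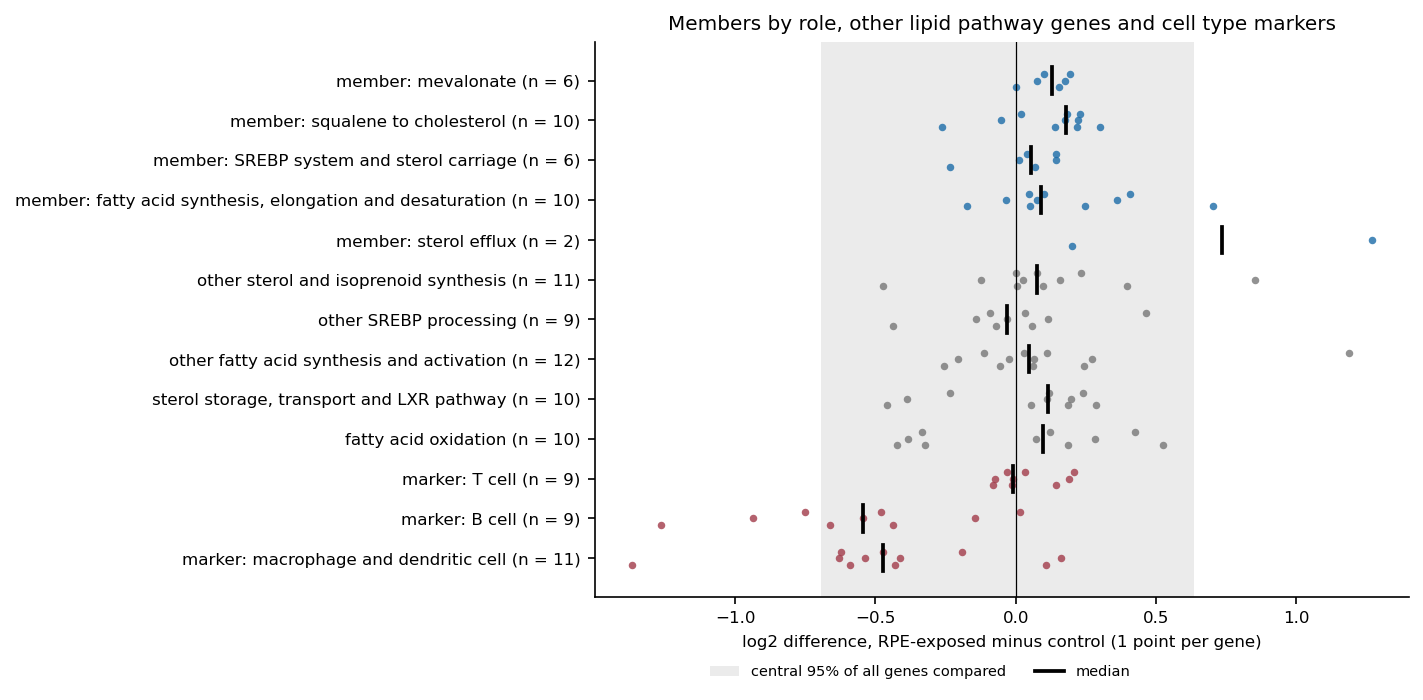
log2 difference per gene, RPE-exposed minus control, for the 34 members by role (blue), neighbouring lipid pathways (grey) and cell type markers (red), with medians as black bars and the central 95% of all genes compared, -0.69 to 0.63, shaded. Sterol synthesis medians lie to the right of zero at 0.13 and 0.18, and those of B-cell (-0.54) and macrophage and dendritic-cell markers (-0.47) to the left. Of the macrophage and dendritic-cell genes, Lyz1 and Adgre1 lay above the floor on 1 array only, so their values are bounds.

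T-cell markers were present on both arrays, and 9 genes had a median of -0.0081, 4 positive and 5 negative. Genes of the T-cell receptor complex were among the positive ones, Cd3g at 1520.2 and 1756.7 (0.21) and Cd3d at 3073.4 and 3505.9 (0.19). Cd247 had 1143.2 and 1263.3 (0.14), with 1 of its 3 probe sets negative. These differences were as large as those of many sterol enzymes. Among the 5 negative genes, Cd3e had 770.9 and 763.9, and Cd4, the lowest, had 287.0 and 271.1 (-0.082). The summed T-cell signal was 12774.3 in control and 13400.0 in exposed cells, and the part of T-cell content in the lipid gene values was not tested. B-cell markers were lower in the exposed sample in 8 of 9, their summed signal going from 2156.1 to 1404.6, with Cd79a at 139.3 and 95.6. Macrophage and dendritic-cell markers were lower in 9 of 11, with summed signals of 2963.9 and 2095.7. Most of that sum came from the class II genes H2-Aa (1437.6 and 1080.8), H2-Eb1 (707.7 and 457.1) and H2-Ab1 (481.7 and 312.8), which B cells also express. Of the others, Lyz1 had 41.3 and 7.5, whereas Csf1r was slightly higher in both probe sets, at 29.1 and 31.4 in the brighter. These cell types also make lipids and export sterol. Most of their markers were lower where most of the 34 genes were slightly higher, and the part of these cells in those values was not tested. In such bulk samples fewer cells of a type and less RNA per cell cannot be told apart.

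The 12 genes listed as RPE markers were under or close to the floor. Whether epithelium was carried over into the exposed sample was not tested. Rpe65, the visual-cycle isomerase, had 5.3 in control and 2.3 in exposed cells, Rlbp1 7.0 and 7.5, and Best1 1.9 and 2.3. Of 12 RPE genes 10 were under the floor on both arrays, and the other 2 passed it on 1 array, Rdh5 at 16.1 in exposed cells and Mitf at 17.3 in control cells. The summed signal of the 12 was 83.4 in control and 65.5 in exposed cells.

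**Figure D4:**
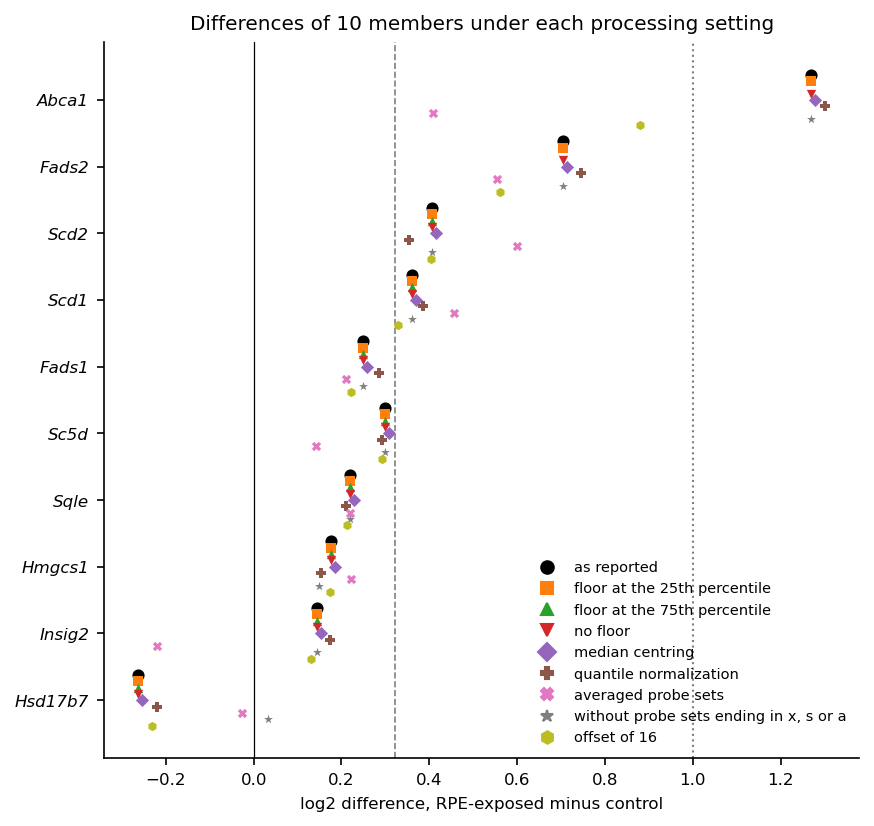
log2 difference, RPE-exposed minus control, of 10 members as reported (black circle) and under 8 other processing settings (coloured marks), with a dashed line at a log2 difference of 0.32 and a dotted line at 2-fold. Scd1 and Scd2 stay above the dashed line in all 8 and Fads2 in the 7 where it was compared, whereas Abca1 spreads from 0.41 to 1.30 and Insig2 and Hsd17b7 each change sign.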

How the data were processed

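Total RNA of both samples was extracted with Trizol, column-purified, reverse transcribed and labelled with biotin by in vitro transcription, per the labels' protocols. The deposited values are linear signal intensities, 1 per probe set and array; the software behind them is not given in the sources used here. After trimming 2% of the 45101 probe sets at either end, the mean was 100.0 for both arrays. The values were therefore taken as already scaled.

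Gene names came from the platform annotation given with the table. Of 35890 listed probe sets, 34958 named 1 gene and were used, and 932 named several. The floor was the median of an array's probe sets, controls left out. Dimmer signals were set to it, log2 was taken, and a gene above the floor on at least 1 array was compared. Calculations used Python 3.11.15, numpy 2.4.6, pandas 2.3.3 and matplotlib 3.10.9. The steps were tested on simulated data with planted shifts larger than 2-fold. Differences as small as most of those reported here were not tested in that way.

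Named were every member, and in each neighbouring list the 2 highest and 2 lowest genes above the floor on both arrays. Msmo1, Lbr, Mbtps1, Mbtps2, Mylip, Lpcat3 and Nr1h3 were added for their role. Members, lists and size rules were chosen with earlier results of these data known. Alternatives were floors at the 25th and 75th percentiles or none, median centring, quantile normalization, averaged probe sets, leaving out probe sets with an x, s or a suffix, and an offset of 16. Promoter windows came from RefSeq.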

Additional observations from a re-analysis of the deposited data

How the results depend on the processing

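Of 128 summary values recomputed under 8 other settings (5 counts, the median of the members and 10 list medians), 119 stayed within 1.5 times for a count, or within the pooled probe-set SD over the square root of the number of genes for a median. With the floor at the 75th percentile, 0 of 30 members were at least 2-fold higher, against 6 of 6737 genes. In that setting 2 of the 30 were higher by the smaller size rule, against 5.88% of all genes. The sterol efflux median, then Abcg1 alone, was 0.15, and Fads2 and Abca1 were no longer compared. With averaged probe sets, 0 members were 2-fold higher, against 23 of 11021 genes. The median of the members was then 0.099, that of the SREBP system and sterol carriage -0.14 and that of sterol efflux 0.34. With an offset of 16, 0 members were 2-fold higher, against 34 of 11000 genes, and the sterol efflux median was 0.53. Between 24 and 29 members had a positive difference over the 8 settings, from 73.5% to 85.3% of those compared. Of all genes compared, 48% to 50% were positive in these settings. The sign was the same in every setting run for 28 members. Fdft1, Hsd17b7, Srebf2, Insig2 and Stard4 changed sign in at least 1, and Mvd, equal as reported, ran from -0.028 to 0.043. No paired analysis was possible because each group holds 1 array. Dim genes such as Abca1, Me1 and Fntb, near the floor, are the least certain.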

Other observations

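Genes of fatty acid oxidation, the mitochondrial breakdown of fatty acids, differed in both directions. All 10 lay above the floor on both arrays, 6 were positive and 4 negative, and the median was 0.098. The 2 highest were Cpt2, the inner carnitine palmitoyltransferase, at 134.5 and 193.7 (0.53), and Hadhb, a subunit of the trifunctional enzyme, at 774.3 and 1038.8 (0.42) and higher in all 3 probe sets. Hadhb lay above its like-level range, which ended at 0.33.

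The 2 lowest were Cpt1a, the outer carnitine palmitoyltransferase that gates entry of fatty acids, at 264.1 and 197.1 (-0.42, while its other probe set above the floor was positive), and Acadvl, the very-long-chain acyl-CoA dehydrogenase, at 517.3 and 396.9 (-0.38). The carnitine carrier gene Slc25a20, chosen after its values were seen, was lower in both probe sets, with 219.3 and 175.3 (-0.32) in the brighter one. Cpt2, Cpt1a, Acadvl and Slc25a20 all lay inside their like-level ranges. These differences have no replicate check.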
